A study of Mus musculus with 12 samples.

Results

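H3K9me3 and H3K27me3, 2 histone marks of silent chromatin, were compared gene by gene in wild-type mouse embryonic fibroblasts (MEFs). The members are the X-linked genes that have a value for both marks in these cells, which is 747 of the 952 genes in the deposited table. Each mark was read in 1 library of chromatin immunoprecipitation and sequencing (ChIP-seq), and both libraries share 1 input. The cells were female, from E13.5 embryos of a cross between C57BL6/J and an F1 of JF1 and C57BL6/J, with the genotype Smchd1+/+ Xist deltaA/+. An X that carries Xist deltaA cannot silence itself, so silencing falls on its homologue, and all groups of the series carry this allele. The wider study has 12 samples, with 8 ChIP libraries and 4 inputs, in MEFs and in epiblast stem cells (EpiSCs) from E6.5, wild type or homozygous for Smchd1 MD1. Those other cells are used here only to set a value beside the MEF value. The labels give no number of embryos or cultures behind a library. No expression was measured in these files, so the fibroblast label was not checked against marker genes.

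H3K27me3 is placed by Polycomb repressive complex 2, which reads and spreads its own mark, and on the inactive X it follows the Polycomb complexes that Xist RNA brings in. H3K9me3 is placed by the methyltransferases SUV39H1, SUV39H2 and SETDB1 and is bound by heterochromatin protein 1, and it typically covers repeats and gene families of constitutive heterochromatin. Genes that escape X inactivation stay active on both X chromosomes and usually lack the marks of the silent X. SmcHD1, the chromosomal protein that the wider study removes, is needed to keep many genes on the inactive X silent.

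Values are log2 enrichments as deposited, read as ChIP over input, and above or under input here means above or under 0. Each library also carries an unknown constant, so 0 need not be the true level of the input. For the same reason the levels of the 2 marks cannot be set against each other directly. Because the input is shared, it drops out of the difference H3K27me3 minus H3K9me3 at a gene, and 1 unknown constant is left for all genes. That difference had a median of 2.18 and was centred on it. The result, called the relative difference here, is positive where a gene leans to H3K27me3 more than the median gene does and negative where it leans to H3K9me3. A gene is called leaning at a relative difference of at least 1 in either direction, which is 2-fold. With 1 library per mark there is no spread between replicates and no test. The 95% counting intervals printed for single genes come from whole numbers recovered from the values for each ChIP library and the input, called pairs here. These are the smallest numbers that fit, and a true read count can be a multiple of them. Where it is, the interval is wider than the true counts would give. The intervals cover counting error only.

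The whole-number pairs summed to 122980 for H3K9me3, 879526 for H3K27me3 and 237146 for the input. The medians per gene were 53, 329 and 99, so H3K9me3 is the shallower side and limits most single-gene differences. A pair under 10 was found in 93 genes for H3K9me3 and in 23 for H3K27me3. The 205 genes without a value had a median length of 1960 bases, against 17768 for the 747, so short genes are under-represented.

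The 2 marks were arranged in opposite ways along the X. The median gene had −0.054 in H3K9me3 and 2.09 in H3K27me3. H3K27me3 was above input at 697 genes (93.3%) and H3K9me3 at 356 (47.7%). Both counts depend on the unknown constant of each library. The middle 50% of genes spanned −0.59 to 0.75 in H3K9me3 and 1.39 to 2.50 in H3K27me3, and the full ranges were −3.92 to 3.28 and −3.21 to 3.81. Across the 747 genes the Spearman correlation of the marks was −0.52 and the Pearson correlation −0.45. Genes share both libraries and the input, are not independent replicates, and the correlation is given as a description.

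Of the 747 genes, 218 (29.2%) leaned to H3K9me3 and 135 (18.1%) to H3K27me3, while 394 leaned to neither. The counting interval lay wholly on the called side of 0 for 214 of the 218 and 123 of the 135. The lean to H3K9me3 reached much further: 92 genes were at least 8-fold from the median gene on that side and 3 on the other. As deposited, without centring, H3K27me3 was at least 2-fold above H3K9me3 in 543 genes (72.7%) and H3K9me3 at least 2-fold above H3K27me3 in 81 (10.8%). The balance of the counts therefore rests on the centring, while the order of the genes does not.

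Ranks, which no constant can move, showed the same opposition most clearly at its H3K9me3 end. Of the 187 genes in the top 25% of H3K9me3, 133 were in the bottom 25% of H3K27me3, which is 17.8% of all genes. Their medians were 1.40 and 0.46. Of the 187 genes in the bottom 25% of H3K9me3, 79 were in the top 25% of H3K27me3, or 10.6% of all genes, with medians of −0.95 and 2.79. The same-sided corners were small. Just 17 genes (2.28%) were in the top 25% of both marks and 15 (2.01%) in the bottom 25% of both.

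**Figure D1:**
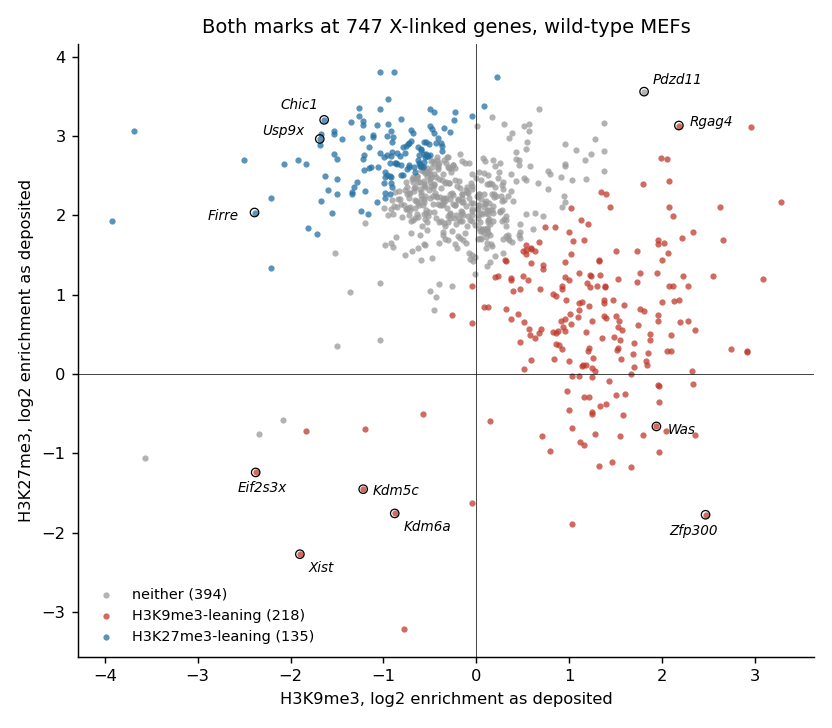
H3K27me3 (vertical axis) against H3K9me3 (horizontal axis), log2 enrichment as deposited, with 1 point for each of the 747 genes, coloured by the lean of the relative difference. The 135 genes leaning to H3K27me3 sit at the upper left, the 218 leaning to H3K9me3 spread down the right side, and a few genes such as Xist and Kdm5c lie low in both.

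The promoters of 4 genes are printed here as 2 pairs. Pim2 and Ssxb8 lie in the same stretch of high H3K9me3 and had nearly equal H3K9me3. Smc1a and Kdm5c lie close together and had similar H3K9me3 but H3K27me3 of opposite sign. The bases are the 250 before the start of each gene, from RefSeq on GRCm38.p6, at chrX:7878056-7878305 (plus strand), chrX:8690845-8691094 (minus), chrX:152016178-152016427 (plus) and chrX:152232977-152233226 (plus). Capitals mark each CpG, the dinucleotide that is methylated in mammals and that clusters in CpG islands.
Pim2: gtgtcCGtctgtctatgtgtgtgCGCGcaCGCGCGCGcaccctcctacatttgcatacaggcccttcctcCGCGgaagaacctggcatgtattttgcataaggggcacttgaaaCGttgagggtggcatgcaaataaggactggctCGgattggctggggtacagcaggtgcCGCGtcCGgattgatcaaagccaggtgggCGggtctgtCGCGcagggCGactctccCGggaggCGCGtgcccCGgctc
Ssxb8: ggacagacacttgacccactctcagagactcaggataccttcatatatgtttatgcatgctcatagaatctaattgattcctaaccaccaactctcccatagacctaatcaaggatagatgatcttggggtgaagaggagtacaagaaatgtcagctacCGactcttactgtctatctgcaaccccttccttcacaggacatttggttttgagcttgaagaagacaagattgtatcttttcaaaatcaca
Smc1a: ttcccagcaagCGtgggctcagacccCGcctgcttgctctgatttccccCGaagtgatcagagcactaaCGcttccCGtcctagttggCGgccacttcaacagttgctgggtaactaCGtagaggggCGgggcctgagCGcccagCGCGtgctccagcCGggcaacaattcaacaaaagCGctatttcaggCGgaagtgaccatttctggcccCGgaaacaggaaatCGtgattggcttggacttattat
Kdm5c: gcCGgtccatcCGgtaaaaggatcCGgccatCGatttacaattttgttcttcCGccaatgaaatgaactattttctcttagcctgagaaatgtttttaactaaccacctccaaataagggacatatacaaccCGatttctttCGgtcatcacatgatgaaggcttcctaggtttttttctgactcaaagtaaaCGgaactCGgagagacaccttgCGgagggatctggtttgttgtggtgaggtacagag
The printed stretches hold 22 CpGs at Pim2, 1 at Ssxb8, 16 at Smc1a and 10 at Kdm5c. Pim2, a serine-threonine kinase, had H3K9me3 of 2.02 and H3K27me3 of 1.65, and Ssxb8, a testis gene of the Ssx family, had 1.958 and −0.14.

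Over all genes with a promoter in the table (626 of 747, 83.8%), the CpG count in 300 bases around the start, searched as the letters CG, was only weakly related to the marks. The Spearman correlation was −0.14 with H3K9me3 and 0.17 with H3K27me3. Among the 179 genes with at most 5 CpGs 36.3% leaned to H3K9me3, and among the 247 with over 15 it was 22.7%. The latter genes were also longer (median 27232 against 14074 bases), and the part of length in this was not tested. At least 1 CpG is found in 92.7% of the 1223 X-linked promoters of the table, whose median is 7.

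Neighbouring genes carried alike values. In order of start, the relative difference of a gene and of the next had a Pearson correlation of 0.72, with 0.46 for H3K9me3 alone and 0.66 for H3K27me3 alone (746 pairs). Among the 698 pairs that do not overlap it was also 0.72. The correlation of the relative difference was 0.58 at 5 genes apart, 0.39 at 10 and 0.17 at 20. After a gene leaning to H3K9me3, the next leaned the same way in 166 of 218 cases (76.1%) and to H3K27me3 in 5. After a gene leaning to H3K27me3, the next leaned the same way in 57 of 135 cases (42.2%) and to H3K9me3 in 6. The marks also opposed each other between neighbours: H3K9me3 of a gene and H3K27me3 of the next gene had a correlation of −0.48, close to the −0.45 found within a gene.

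The opposition was seen between stretches of genes and hardly between a gene and its own neighbours. For each gene the median of its 5 neighbours on each side was taken, and the gene's departure from that median. The neighbourhood medians of the 2 marks had a Pearson correlation of −0.86, while the departures had 0.027 (Spearman −0.096). Among the 372 genes with input pairs of at least 100, an alternative chosen after seeing the data, the departures had −0.14, so the sign of this small correlation was not the same in that subset. Neighbourhood medians of nearby genes share members, and the departures hold the counting error of the shared input, so both are descriptions. In wild-type EpiSCs the same values were −0.75 and −0.078, and in MD1 MEFs 0.35 and 0.32. The SDs of neighbourhood medians and of departures were similar for each mark, 0.72 and 0.80 for H3K9me3 and 0.77 and 0.68 for H3K27me3. The departures also hold the counting error of single genes, which a median over 10 genes reduces. These SDs therefore do not show how much genes and stretches themselves varied.

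**Figure D2:**
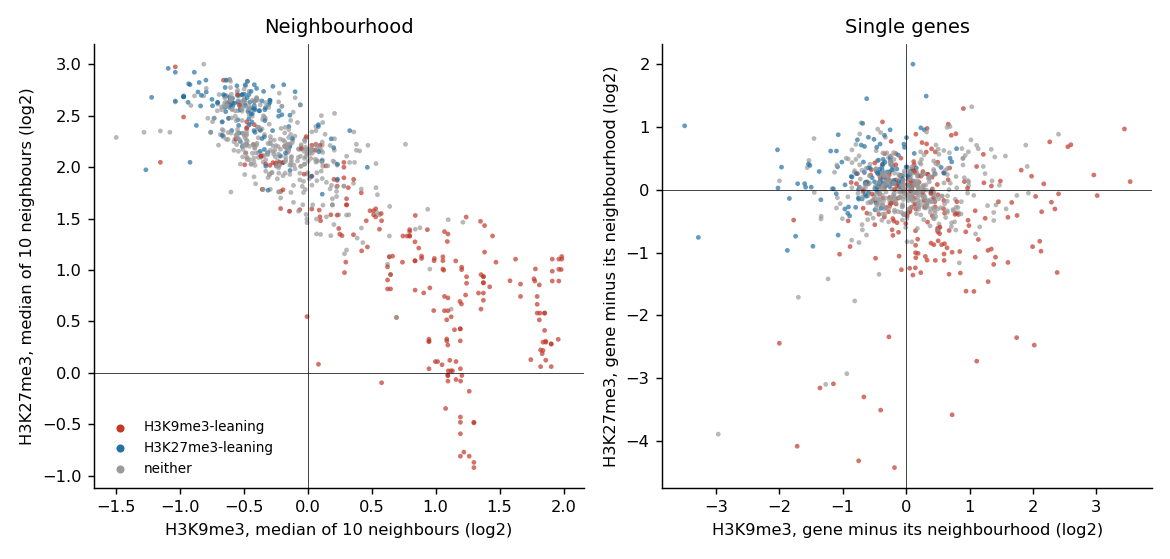
Left, the median H3K27me3 (vertical) against the median H3K9me3 (horizontal) of the 10 genes around each gene; right, the departure of each gene from those medians, all in log2 units with 1 point per gene. The left cloud falls steadily (r = −0.86) and the right one has little slope (r = 0.027 over all genes, −0.14 among those with input pairs of at least 100).

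With centring, leaning to H3K9me3 came in longer runs than leaning to H3K27me3. The 218 genes formed 52 runs of consecutive measured genes, of which 8 held at least 6 genes, and these 8 held 153 genes (70.2%). The 135 genes leaning to H3K27me3 formed 78 runs, of which 51 were single genes, 1 reached 6 genes and none was longer. As deposited, without centring, the order turned, and the longest runs were 15 genes for H3K9me3 and 51 for H3K27me3. Coordinates of the runs are in mm9, counted from 1.

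The longest run held 46 genes from Foxp3 to B630019K06Rik (X, 7156802 to 8472090), in 1.32 Mb of gene-dense sequence. Every gene in it had H3K9me3 above input, from 0.59 to 2.62 with a median of 1.86, and H3K27me3 ranged from −0.77 to 2.11 with a median of 0.67. The medians of all genes were −0.054 and 2.09. The run was picked by the difference of the marks, which favours high H3K9me3 with low H3K27me3. The run mixes genes of unrelated roles: Foxp3 (the regulatory T cell factor), Syp (synaptophysin of synaptic vesicles), Tfe3 (a lysosomal gene regulator), Hdac6 (a cytoplasmic deacetylase), Suv39h1 (an H3K9 methyltransferase), Was (an actin regulator of blood cells), Porcn (the acyltransferase that Wnt ligands need) and 8 Ssx genes. Promoter CpG counts in it ran from 1 to 37 over 37 genes, with a median of 10, and had a Spearman correlation of −0.087 with H3K9me3.

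Inside this run H3K27me3 spanned a wider range than H3K9me3. The largest leans were at Was (H3K9me3 1.94, H3K27me3 −0.66, relative difference −4.78, interval −5.26 to −4.29), Ssxb10 (1.79, −0.77 and −4.75) and Kcnd1, a potassium channel (1.97, −0.36 and −4.50). Suv39h1 had 1.76 and 0.81, and Hdac6, which lies before it in the run, had 1.48 and 0.46. The smallest leans were at Pcsk1n, a proprotein convertase inhibitor (−2.06), and Foxp3 (−2.08). Gata1, the erythroid factor (−3.39), rested on ChIP pairs of 9 and 7 with an input pair of 4, against 75 at Was. As the smallest numbers that fit, these may be below its true counts.

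The edges of this run differed. At its end the last gene B630019K06Rik had H3K9me3 of 2.62 and the next, 4930402K13Rik, −0.50. At its start H3K9me3 was 1.32 at Foxp3 and 0.30 at Ppp1r3fos before it. H3K27me3 stepped from 2.11 to 1.04 across the end, which is a fall and not a rise, and was 2.01 at Xk, 2 genes further on. B630019K06Rik rested on an input pair of 6.

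**Figure D3:**
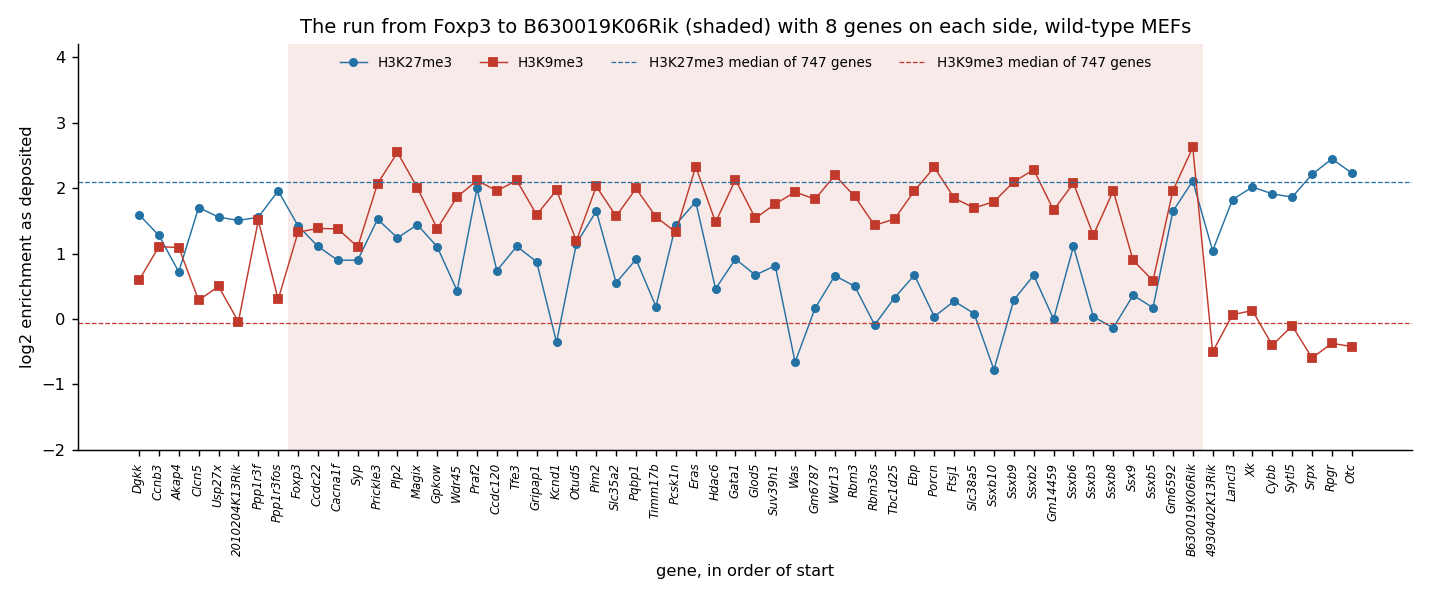
H3K9me3 (red squares) and H3K27me3 (blue circles), log2 enrichment as deposited, for the 46 genes from Foxp3 to B630019K06Rik (shaded) and 8 genes on each side, in order of start. Dashed lines are the medians of all 747 genes, −0.054 and 2.09. Inside the shading H3K9me3 stays above its median and H3K27me3 mostly below its own, and past the right edge both return toward them. The shaded run was picked by the difference of the marks, which favours this pattern.

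The next run held 34 genes from Itm2a to Diap2 (X, 104592534 to 127000369) and is of another kind. It spans 22.4 Mb with 1.52 measured genes per Mb, against 35.0 in the Foxp3 run, and its genes are long (median 31712 against 8804 bases). H3K9me3 was lower than in the Foxp3 run, with a median of 1.15, and H3K27me3 was lower too, with a median of −0.026. Dach2, a transcription cofactor, had H3K9me3 of 1.25 and H3K27me3 of −0.51 on ChIP pairs of 3588 and 1915. Pcdh11x (X, 117403936 to 118024227), a protocadherin of neurons, had 1.32 and −1.15 on pairs of 4106 and 1329, with a relative difference of −4.66 (interval −4.74 to −4.57). Cpxcr1 had 1.963 and −0.98, the second of the named genes by size of lean (−5.12, interval −5.52 to −4.72). Satl1 had 1.58 and −0.52. H3K9me3 was not above input throughout, and its lowest value in the run was −0.78 at 4921511C20Rik. The flanking genes, the receptor gene Gpr174 before it and the protocadherin gene Pcdh19 after it, had H3K27me3 of 1.59 and 1.77.

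The third run held 23 genes from Chst7 to Gm5124 (X, 19636696 to 20941750), with medians of 1.30 in H3K9me3 and 0.94 in H3K27me3. It took in Uba1 (the ubiquitin-activating enzyme), Araf (a RAF kinase), Syn1 (synapsin), Timp1 (a metalloproteinase inhibitor), Cfp (properdin) and Elk1 (a transcription factor). Uba1 had 1.73 and 1.16, Araf 1.70 and 0.39, and Timp1, which fibroblasts secrete, 1.11 and 0.81. Timp1 lies wholly within the span of Syn1, so the values of Timp1 and Syn1 are not from separate sequence. At its far end lay 2 zinc finger genes. Zfp300 (X, 20656276 to 20666355) had H3K9me3 of 2.47 and H3K27me3 of −1.77 on ChIP pairs of 168 and 16, with the largest lean of all genes measured (−6.42, interval −7.16 to −5.68). Zfp182 had 1.97 and −0.15 on pairs of 607 and 252 (−4.30, interval −4.51 to −4.08).

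The other 5 runs leaning to H3K9me3 held 6 to 13 genes. They were 4930524N10Rik to Phex (13 genes, X, 150773768 to 153853218), Prkx to 4930595M18Rik (12 genes, 75007374 to 78703461), Ldoc1 to Fmr1nb (11 genes, 58962791 to 66057735), Gm16404 to Gm648 (8 genes, 52804773 to 53802783) and Gm362 to Actrt1 (6 genes, 40944166 to 43683522). Their median H3K9me3 lay between 1.01 and 1.63 and their median H3K27me3 between 0.30 and 1.23. The first held 4 Magea genes and the polyamine acetyltransferase gene Sat1 (1.21 and −0.28). The Ldoc1 run held Fmr1, the fragile X gene, with 0.72 and 1.32.

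The genes next to the 8 runs lay near the median gene. The 16 flanking genes had relative differences between −0.76 at Slc6a14, after the Chst7 run, and 0.85 at Smarca1, after the Gm362 run. H3K27me3 at them lay between 0.98 and 2.41. A run ends at a gene that does not lean to H3K9me3, so the rule itself kept these genes from leaning that way.

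In wild-type EpiSCs, where 39.4% of 719 genes leaned to H3K9me3 and 37.8% to H3K27me3 by the same rule, all measured genes of these 8 MEF runs leaned to H3K9me3. The counts were 44 of 44 in the Foxp3 run, 31 of 31 in the Itm2a run and 22 of 22 in the Chst7 run. Their EpiSC medians were 3.77 and 1.92, 3.67 and 0.28, and 3.58 and 2.56 for H3K9me3 and H3K27me3. In MD1 MEFs, where 29.6% of 754 genes leaned to H3K9me3 and 19.0% to H3K27me3, 27 of 45, 30 of 34 and 12 of 23 did. H3K9me3 medians there were −1.87, 0.32 and −1.14, and of these 3 runs the Itm2a run had it above input. The runs were chosen in wild-type MEFs, the scale of each library is unknown, and none of these differences was tested.

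**Figure D4:**
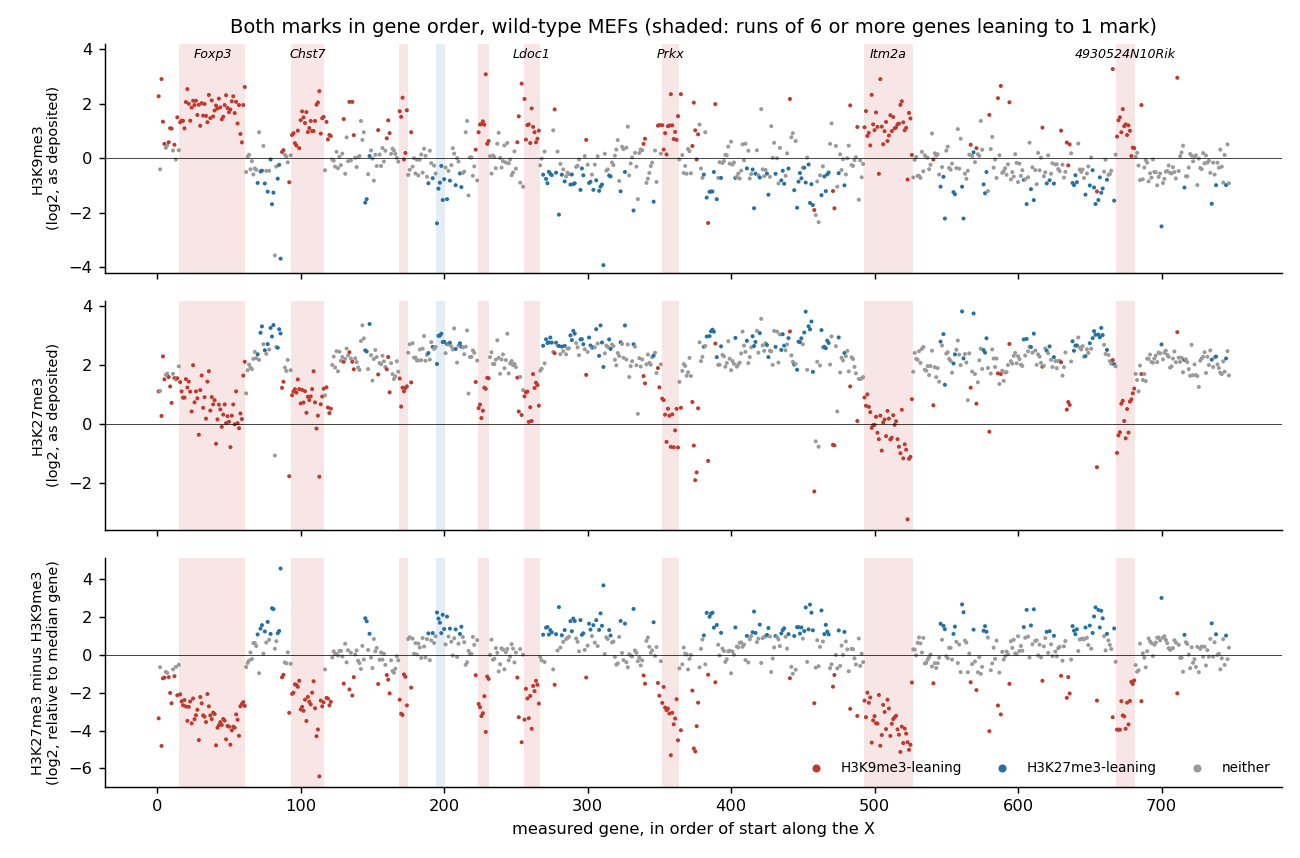
H3K9me3 (top), H3K27me3 (middle) and the relative difference (bottom) for the 747 genes in order of start, in log2 units, coloured by lean. Shading marks the runs of at least 6 genes, 8 leaning to H3K9me3 (red) and 1 to H3K27me3 (blue), and the first gene of the runs of at least 11 is named. H3K27me3 dips and H3K9me3 rises in the red stretches, which were picked by the difference of the marks, a rule that favours this pattern.

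By position, leaning to H3K9me3 was concentrated in some 10 Mb intervals. At 0 to 10 Mb 55 of 69 genes leaned to H3K9me3 (79.7%), at 20 to 30 Mb 24 of 25 (96.0%), and at 110 to 130 Mb all 12 of the genes measured. At 90 to 100 Mb 3 of 73 did (4.11%) and 26 leaned to H3K27me3 (35.6%). Medians at 90 to 100 Mb were −0.45 and 2.61, and at 0 to 10 Mb 1.54 and 1.10. Within the 14 intervals that hold at least 20 genes, the Spearman correlation of the marks ranged from −0.73 (60 to 70 Mb and 150 to 160 Mb) to 0.091 (90 to 100 Mb).

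The only run of at least 6 genes leaning to H3K27me3 went from Firre to Hs6st2 (X, 47908921 to 49034779). Firre, which makes a long noncoding RNA that anchors the inactive X near the nucleolus, had the lowest H3K9me3 of the run (−2.39) and also its lowest H3K27me3 (2.04). Its relative difference of 2.25 (interval 1.94 to 2.55) thus came from little H3K9me3. Stk26, Frmd7, Rap2c, Mbnl3 and Hs6st2 had H3K27me3 of 2.77 to 3.06. Mbnl3, a splicing regulator, had −1.53 and 2.77 (relative difference 2.13).

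Among genes with at least 10 in both ChIP pairs and without clone or predicted names, the 10 that leaned most to H3K27me3 included Chic1, Iqsec2, Usp9x, Atg4a, Tsc22d3, Kantr, Gpr173, Igbp1 and Firre. Their relative differences ran from 2.25 to 2.66. The minimum removes genes with very low H3K9me3 counts, such as Gpr82 at 4.57 on a pair of 1, and so limits the values on this side. Chic1 (X, 100551815 to 100591457) had H3K9me3 of −1.64 and H3K27me3 of 3.20 (2.66, interval 2.22 to 3.11). Usp9x, a deubiquitinase, had −1.69 and 2.96 on pairs of 20 and 904 (2.47, interval 1.83 to 3.11). In the ranks of all genes these 10 lay in the lowest 5.49% of H3K9me3. In H3K27me3 Firre was at the 47.3 percentile and the other 9 between the 82.3 and the 98.4.

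The 10 at the other end, by the same rule, were Zfp300, Cpxcr1, Was, Ssxb10, Pcdh11x, Cdr1, Kcnd1, Porcn, Zfp182 and Satl1, with relative differences from −6.42 to −4.28. They lay between the 86.1 and 99.3 percentile of H3K9me3 and in the lowest 9.91% of H3K27me3. Picking genes by the difference of the marks favours such ranks. Cdr1 (X, 58436421 to 58438733), outside the 8 runs, had 2.74 and 0.31 on pairs of 69 and 23.

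Genes known to escape X inactivation lay low in both marks and so stood off the main axis. Kdm5c and Kdm6a, histone demethylases, had H3K9me3 of −1.22 and −0.88 and H3K27me3 of −1.45 and −1.76. Eif2s3x, a translation initiation factor subunit, had −2.38 and −1.24, Ddx3x, an RNA helicase, −3.57 and −1.06, and Pbdc1 −1.84 and −0.72. The Ddx3x value of H3K9me3 rests on a ChIP pair of 4. The remaining 3 of the 8 listed did not share this: Utp14a had −0.054 and 2.15, Car5b 0.21 and 2.24, and Mid1 −0.98 and 2.22. The median of the 8 was −1.10 in H3K9me3, at the 8.10 percentile, and −0.89 in H3K27me3, at the 2.41 percentile.

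By relative difference 4 of the 8 escape genes leaned to H3K9me3 (Kdm6a −3.06, Kdm5c −2.41, Pbdc1 −1.06 and Eif2s3x −1.04), against 29.2% of all genes, and 1, Mid1, to H3K27me3. In these 4 both marks were under input. Just 12 of the 747 genes were under input in both marks. They were Kdm5c, Kdm6a, Ddx3x, Eif2s3x, Pbdc1, 5530601H04Rik, Xist, Jpx, Ftx, 4930415L06Rik, Gm6377 and 4921511C20Rik, singled out after their values were seen. Xist, Jpx and Ftx make long noncoding RNAs of the X inactivation centre, and 4921511C20Rik rested on ChIP pairs of 3 and 1.

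Kdm5c interrupted a stretch leaning to H3K27me3. Among genes with both ChIP pairs of at least 10, it departed furthest from its neighbours toward H3K9me3. Before it Smc1a, a cohesin subunit, had −1.07 and 3.14 and Iqsec2 had −1.68 and 3.02. After it Kantr had −1.53 and 3.03. H3K9me3 was low at all 4, while H3K27me3 at Kdm5c (X, 148667770 to 148713642) was over 4 log2 units below that of the other 3. Its relative difference departed from that of its 10 neighbours by −4.16. The promoters printed above place 16 CpGs at Smc1a and 10 at Kdm5c.

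The X inactivation centre, in a list added after its values were seen, also held genes low in both marks beside genes high in H3K27me3. Cdx4 (−0.23 and 3.31), Chic1 (−1.64 and 3.20) and Tsx (−0.95 and 3.47) were at the 98.7, 97.7 and 99.5 percentiles of H3K27me3. Tsix had −1.72 and 1.77, and Xist (X, 100655712 to 100678572) −1.90 and −2.27. Jpx had −2.09 and −0.58 and Ftx −2.35 and −0.76. H3K9me3 was under input at all 9 genes of the list, with a median of −1.64 at the 2.95 percentile. Tsix overlaps Xist on the other strand. The sources used here do not say whether the counting used strand, so reads in the shared part cannot be told apart, and Tsx rests on an H3K9me3 pair of 4.

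Genes of the list of X-inactivated housekeeping and other genes lay near the middle of both marks. H3K27me3 ran from 1.79 at Pgk1, a glycolytic enzyme, to 2.74 at the ubiquitin ligase Huwe1, and H3K9me3 from −0.996 at Huwe1 to 0.47 at Pgk1. Hprt, the purine salvage enzyme, had 0.0048 and 2.08. None of the 7 leaned to H3K9me3 and 1, Huwe1 (1.55), leaned to H3K27me3. Their medians of −0.30 and 2.08 were at the 41.2 and 49.5 percentiles.

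The counts of the lists by role that follow are read beside the shares over all genes, 29.2% leaning to H3K9me3 and 18.1% to H3K27me3. All 8 measured Ssx genes leaned to H3K9me3, with relative differences from −4.75 at Ssxb10 to −2.59 at Ssxb5. Their medians were 1.87 in H3K9me3 and 0.23 in H3K27me3, and all lie in the Foxp3 run, so they share 1 location. The Ssx genes are near-identical copies among which reads may be split. Of 12 Mage genes 8 leaned to H3K9me3 (29.2% of all genes did), and the median was −1.94. Among those 8, Magea2, Magea3, Magea5 and Magea8 lie in the run from 4930524N10Rik to Phex, so they share 1 location. Magea3 rested on ChIP pairs of 2 and 3 (interval −5.02 to 0.14), Magea2 on 7 and 6 and Magea5 on 11 and 6. Magea8 had 1.81 and 0.79 and Mageb16 0.97 and −0.21. Maged1, which is expressed outside the testis, also leaned to H3K9me3 (−1.44) but was high in both marks, with 1.99 and 2.72. Magea10 (−0.85 and 2.65, on an H3K9me3 pair of 6) leaned to H3K27me3.

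The Rhox homeobox genes are expressed in the reproductive tract and germ line. Against 29.2% and 18.1% of all genes, of 10 measured members of 30 listed 1 leaned to H3K9me3 (Rhox13, 1.04 and 1.68) and 3 to H3K27me3 (Rhox2g, Rhox2h and Rhox8). Rhox8 had 0.083 and 3.38, while Rhox2g and Rhox2h rested on H3K9me3 pairs of 3 and 2. The median H3K27me3 of the 10 was 2.48, at the 73.5 percentile. Of 8 Zfp genes 4 leaned to H3K9me3, against 29.2% of all genes: Zfp300, Zfp182, Zfp711 (1.52 and 0.30) and Zfp449 (1.23 and 1.23). All 4 lie in runs leaning to H3K9me3: Zfp300 and Zfp182 in the Chst7 run, Zfp711 in the Itm2a run and Zfp449 in the Gm16404 run. Zfp185, whose protein binds actin, leaned the other way (−0.60 and 2.84).

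The blood and neural lists leaned to H3K9me3 at about the share of all genes, 29.2%. In the blood and immune list 4 of 13 leaned to H3K9me3 (Was, Gata1, Cfp and Foxp3), and all 4 lie in the Foxp3 and Chst7 runs. Il2rg, a cytokine receptor subunit, had 0.57 and 3.15, and Tlr7, an RNA sensor, had −0.99 and 2.29. In the neural list 4 of 14 leaned to H3K9me3 (Pcdh11x, Syp, Syn1 and Il1rapl1) and 3 to H3K27me3, L1cam and Dcx among them. Of the 11 genes for matrix and growth control expressed in fibroblasts, 1 leaned to H3K9me3 (Timp1, which lies within the span of Syn1). A further 3 leaned to H3K27me3 (18.1% of all genes did): the glypican Gpc3 (−0.82 and 2.75), Cd99l2 (−0.62 and 2.76) and the matrix proteoglycan Bgn (−0.37 and 2.87). The median H3K27me3 of the 11 was 2.44.

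Chromatin regulators and developmental factors had members on both sides, where all genes had 29.2% leaning to H3K9me3 and 18.1% to H3K27me3. Of 16 chromatin regulators 5 leaned to H3K27me3, among them the deacetylase Hdac8 (−0.86 and 2.79), the Polycomb corepressor Bcor (−0.48 and 3.09), Phf6 and Nono. Hdac6, Suv39h1, Kdm5c and Kdm6a leaned to H3K9me3. Of 11 measured developmental factors 5 leaned to H3K9me3, and Esx1, a placental homeobox gene, had the highest H3K9me3 (2.21, with 1.72 in H3K27me3). Zfx (−1.44 and 2.96) and Cdx4 leaned to H3K27me3. Of 4 ribosomal protein genes Rpl39 leaned to H3K9me3 (0.85 and 1.86) and Rps4x to H3K27me3 (−1.17 and 2.01, on an H3K9me3 pair of 8).

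Of 14 Slc transporter genes 4 leaned to H3K9me3 and 2 to H3K27me3, against 29.2% and 18.1% of all genes, with a median of −0.055. The 7 Bex and Tceal genes had a median of −0.48 with 1 gene on each side. Of 10 Gpr receptor genes 5 leaned to H3K27me3 (18.1% of all genes did) and 1, Gpr50, to H3K9me3, with a median of 0.84. Among those 5, Gpr82, Gpr119 and Gpr165 rested on H3K9me3 pairs of 1, 3 and 5, and Gpr34 and Gpr173 on 17 and 27. The counting interval of Gpr119, −0.54 to 2.82, held 0. The single Xlr gene measured had −0.81 and 2.15. Genes with clone or predicted names leaned to H3K9me3 in 51 of 116 cases (44.0%), against 167 of 631 (26.5%) for the others, and they were shorter (median 12837 against 20127 bases).

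**Figure D5:**
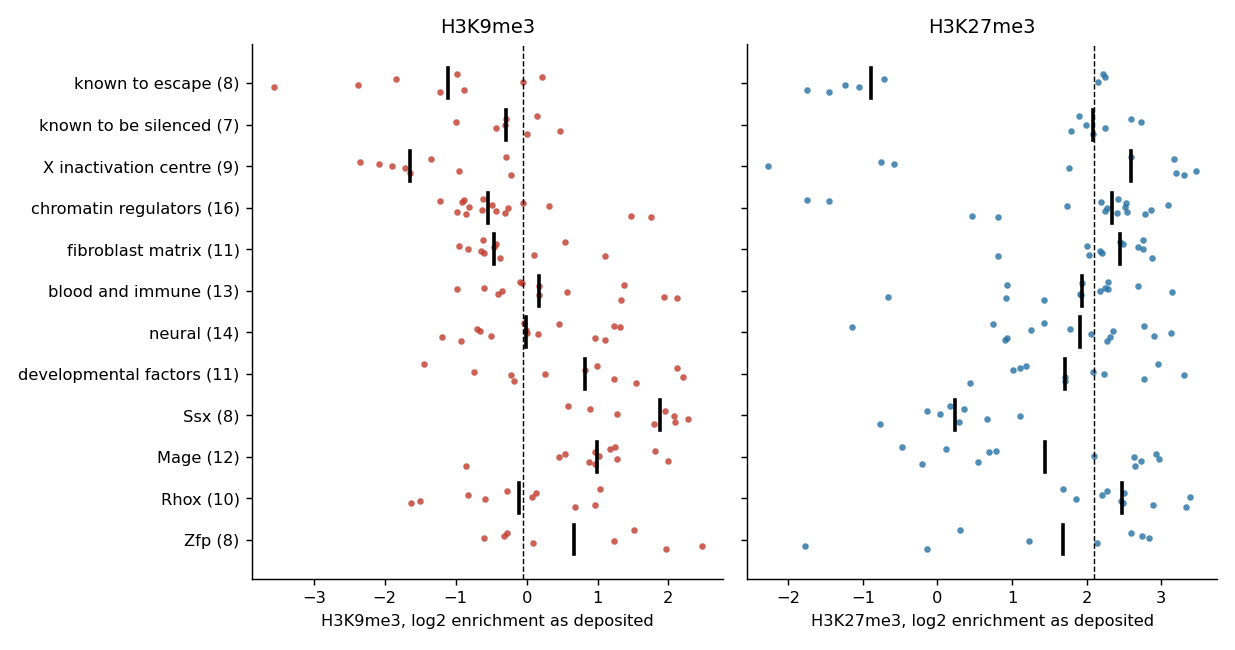
H3K9me3 (left) and H3K27me3 (right), log2 enrichment as deposited, for the measured members of 12 lists, with the number of genes in brackets. Points are genes, black bars are list medians and dashed lines the medians of all 747 genes. The escape genes lie left of the dashed line in both panels for 5 of 8 members, and the Ssx genes lie right of it for H3K9me3 and left of it for H3K27me3.

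High values of both marks were found mainly at short, thinly counted genes. The 17 genes in the top 25% of both had a median length of 3002 bases and a median input pair of 13, against 99 for all genes. A low input count raises both values at once, and its part in this class was not tested. They included Rgag4 (2.18 and 3.13), Pdzd11 (1.81 and 3.56), Trap1a (2.06 and 2.71) and Maged1 (1.99 and 2.72). The input pairs of these 4 were 14 to 23.

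Gene length went with H3K9me3 (Spearman correlation −0.30) and hardly with H3K27me3 (0.085). In the shortest 25% of genes (up to 6196 bases) the medians were 0.46 and 1.86, and 83 of 187 leaned to H3K9me3. In the longest 25% (from 50689 bases) they were −0.38 and 2.13, and 35 of 187 did. The opposition of the marks was present in every length class, with Spearman correlations of −0.34, −0.57, −0.59 and −0.67 from the shortest to the longest. Median input pairs in these classes were 15, 63, 177 and 625, so the correlation was strongest where the counts were deepest.

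Some genes broke with their neighbours. H2bfm, a histone H2B gene (1.60 and −0.25), and Pet2 (2.05 and −0.72) departed to H3K9me3 by −4.60 and −4.24. The H2bfm pairs were 14 and 7. In the other direction Kctd12b (−1.55 and 2.03, departure 2.81) and Fam3a, a cytokine-like gene (−1.92 and 2.70, departure 2.55, H3K9me3 pair of 6), lay above their neighbours. The largest such departure, 4.34 at the receptor gene Gpr82, rested on an H3K9me3 pair of 1, and its relative difference of 4.57 had an interval of 1.74 to 7.41.

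Set beside the other cells, the opposition of the marks was shared with wild-type EpiSCs and not with MD1 MEFs. The Pearson correlation of the marks across genes was −0.62 in wild-type EpiSCs and 0.37 in MD1 MEFs, against −0.45 here. The SD over genes of H3K27me3 minus H3K9me3 was 1.75 in wild-type MEFs, 3.33 in wild-type EpiSCs and 1.78 in MD1 MEFs. With 1 library per mark and cell, these differences have no replicate check and were not tested.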

How the data were processed

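The authors deposited log2 enrichment values per X-linked gene and ChIP library. The submitters' processing notes name SAMtools, BWA, cutadapt and the build mm9. Not given in the sources used here: tool versions, the counting rule, any pseudocount, library scaling and the X chromosome each read came from. The reading of the values as ChIP over input rests on the file and its values. Members and lists were chosen with earlier results of these data known.

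With 1 constant per library, 100% of the values matched ratios of whole numbers, at a relative tolerance of 2e-14. Both marks were given a common denominator, which equalled the larger of their own in 95.0% of genes. The pairs are the smallest possible and gave the counting intervals (normal approximation on the log scale). The procedure was also run on simulated counts, whose outcome is not reported here and is not used as support. Starts were read as counting from 0, since 346 of 840 gene lengths then equalled those in RefSeq GRCm38.p6, against 36 otherwise. Of 747 names, 744 matched a RefSeq symbol or synonym; a gene with several promoters was given its highest CpG count.

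Named genes were the 10 at each end of the relative difference and the 5 highest and lowest in both marks, all with ChIP pairs of at least 10, the 3 largest departures on each side, list members and run ends, without clone names except at run ends. Alternatives were an input pair of at least 20, a pseudocount of 0.1, the lowest 10% of genes or overlapping genes left out, no centring, other rank limits and other neighbourhoods. Computation used Python 3.11.15, numpy 2.4.6 and pandas 2.3.3. Some genes of these sets are not reported here.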

Additional observations from a re-analysis of the deposited data

Results flagged for a closer look

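Several values had one sign in wild-type MEFs and the opposite sign in another cell, at 1 library per mark, and none of these differences was tested. The Pearson correlation of the 2 marks across genes was −0.45 in wild-type MEFs and 0.37 in MD1 MEFs. Usp9x had a relative difference of 2.47 in wild-type MEFs and −4.32 in MD1 MEFs, where its H3K27me3 was −3.20. Igbp1 had 2.30 and −1.58 in the same order, and Fam3a 2.44 and −2.26.

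In wild-type EpiSCs Kdm5c had 2.30, against −2.41 in wild-type MEFs, and Pbdc1 had 3.30, against −1.06. H3K27me3 at Kdm5c was 2.75 in EpiSCs, where the median gene had 4.17, and −1.45 in wild-type MEFs, where the median gene had 2.09. At Pbdc1 it was 3.29 and −0.72 in the same order. Both escape genes thus lay under the median gene in H3K27me3 in either cell. Their EpiSC H3K9me3 was −1.8 and −2.3, where the median gene had 2.03. Rgag4, Trap1a and Maged1 had 1.76, 1.42 and 1.56 in EpiSCs and −1.23, −1.53 and −1.44 in MEFs. The Mage genes had a median relative difference of 1.43 over 8 genes measured in EpiSCs and −1.94 over 12 in MEFs. These medians are over different sets of genes, and the part of that in the gap was not tested.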

How the results depend on the processing

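No paired analysis was possible because each group has 1 library. The correlation of the marks stayed negative under the alternatives run on it, and leaving out overlapping genes moved no leaning count or longest run by over 1.5 times. Centring set the balance of the counts: without it 543 genes leaned to H3K27me3 and 81 to H3K9me3, and the longest runs were 51 and 15 genes in the same order, against 6 and 46 with it. With input pairs of at least 20, the median difference was 2.30 and 11 genes were in the top 25% of both marks; with the outer 20% of the ranks in place of 25% it was also 11, and with 33.3% it was 40. Without the lowest 10% of genes the Spearman correlation was −0.62. The correlation of departures from neighbours, 0.027, was −0.14 among the 372 genes with input pairs of at least 100, so its sign is not settled, while neighbourhood medians had −0.88 there. The neighbourhood settings were chosen after seeing the data. The H3K9me3 counts limit single genes: 93 have a pair under 10.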
